A study of Homo sapiens with 4 samples.

Results

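The Notch signalling genes are 35 human genes that build, trim, transmit or read out the Notch signal, and all of them had at least 1 named probe among the 19090 named genes of the array. They were chosen by gene symbol as members of the pathway, with earlier results of these data known. To them belonged 51 of the 28264 probes: 22 genes had 1 probe, 11 had 2, APH1B had 3 and RBPJ had 4. Expression was measured in TOV112D, an established epithelial ovarian cancer cell line, on 4 single-colour arrays. HD cells (2 arrays) were transfected with a plasmid carrying HOXD10, a homeobox transcription factor, and ND cells (2 arrays) were the control. The figure legends give ND as a control plasmid, which the transfection methods name as pCDNA3, while the array methods call the ND cells mock-transfected, so whether ND cells carried a plasmid is not settled. Both groups are 1 cell line under transient transfection, and separate transfections are not described for the arrays of a group. All p-values therefore reflect only how far arrays differed, which may be technical.

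Notch receptors are single-pass membrane proteins that bind ligands of the Jagged and Delta-like families on the neighbouring cell. Ligand binding exposes the receptor to an ADAM protease and then to γ-secretase, which frees the intracellular domain to enter the nucleus, where it joins the DNA-binding protein RBPJ and a Mastermind coactivator at target genes such as the HES and HEY repressors. In ovarian tissue the pathway is known for signalling between oocytes and granulosa cells, and JAG1 and NOTCH3 are among the members studied in ovarian cancer.

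In HD cells the ligand gene JAG1, the receptor gene NOTCH1 and the DNA-binding partner gene RBPJ rose, while the feedback inhibitor gene NRARP, the endocytic adaptor gene NUMBL and the E3 ligase genes DTX1 and DTX4 fell. JAG1 rose 12-fold, NOTCH1 2.22-fold and the called RBPJ probe 2.2-fold, while NRARP was 2.44-fold lower in HD cells. The other 28 genes had no probe past the test, and the canonical target genes HES1, HES4, HEY1, HEY2 and HEYL were among them.

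HD was compared with ND on log2 normalized intensity over all probes with limma, with Benjamini-Hochberg adjustment. At an adjusted p under 0.05, 3 Notch probes were higher in HD, 5.88% of the 51 against 6.65% of all probes, and 4 were lower, 7.84% against 7.19% of all probes. The shares called were thus near those of the whole array in both directions. By the fold criteria, a change of 1 or more log2 units in either direction with an unadjusted p under 0.05, 4 Notch probes were higher (7.84%, against 6.11% of all probes) and 1 was lower (1.96%, against 6.27%). In 10 Notch probes both HD arrays lay above both ND arrays (19.6%, against 24.9% of all probes), in 21 both lay below (41.2%, against 34.8%), and in 20 the groups overlapped or were equal. With each gene represented by its brightest probe, the median log2 fold change of the Notch genes was -0.26, with 12 genes above 0 and 22 below. Over all 19090 named genes it was -0.05, with 7034 above 0 and 10194 below. The median of the Notch genes was -0.13 after quantile normalization and -0.07 after cyclic loess normalization. The median over all probes was then 0 and 0.03.

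The number of Notch probes called depended on the scaling and on the test. Quantile normalization gave 8 higher (15.7%, against 11.7% of all probes) and 8 lower (15.7%, against 9.73%). Cyclic loess normalization gave 11 higher (21.6%, against 17.6%) and 9 lower (17.6%, against 13.9%). Scaling to a common 75th percentile gave 9 higher (17.6%, against 15.1%) and 13 lower (25.5%, against 18.5%). The calls over the whole array thus grew along with those of the Notch probes. With any 1 of the 4 arrays left out, 0 of the 51 Notch probes, and 0 probes of the array, passed an adjusted p under 0.05 in limma, while with all 4 arrays 23 Notch probes had an unadjusted p under 0.05 (45.1%, against 35.7% of all probes). The 7 calls above therefore need all 4 arrays. In each of the 7 the HD and ND arrays did not overlap, so leaving out an array could not have turned the direction. Robust eBayes kept the JAG1 call alone, and it called 0.959% of all probes higher and 1.04% lower.

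**Figure D1:**
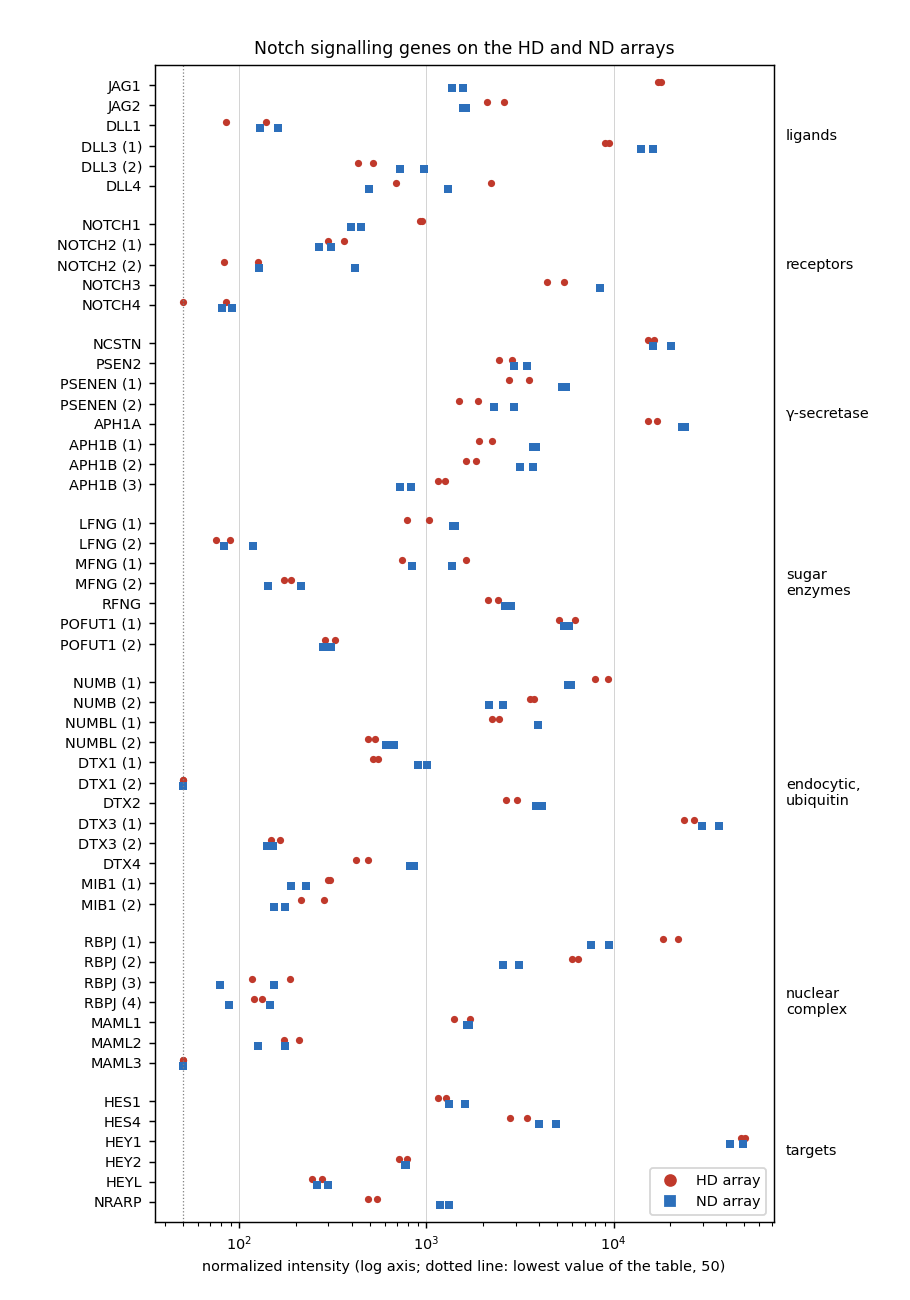
Normalized intensity (log axis) of every Notch probe on each array, grouped by role, with HD arrays as red circles and ND arrays as blue squares and the lowest value of the table, 50, dotted. JAG1 lies at 17260 and 17970 on the HD arrays, against 1370 and 1564 on the ND arrays, the widest gap between the groups.

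Several values of the whole table bear on these results. The arrays shared a median of 361.2, and 4414 to 5579 probes per array lay at the lowest value of 50, which has no order below it. Among the Notch probes, 49 (34 genes) exceeded 50 on 1 or more arrays, while MAML3 and the second DTX1 probe were at 50 on all 4. The HOXD10 probe itself read 50 on all 4 arrays, and it is unknown whether this probe can follow the plasmid's transcript. The array thus gives no check of the HD label. Apart from the arrays, the paper reports raised HOXD10 mRNA by qPCR and protein by western blot in TOV112D cells given the plasmid. It does not say whether those were the cells of these arrays. Of 6 epithelial marker genes CDH1 and KRT7 were at 50 on all arrays, and the summed level of the list was 2303 to 2759 in HD and 1447 to 1526 in ND. EPCAM rose (1767 and 1469 in HD, 378.2 and 360 in ND), while KRT19 fell (345.1 and 297.1 in HD, 664.9 and 737.5 in ND). Of 4 ovarian and Müllerian markers MUC16 was at 50 throughout and the sum was 200 to 213.4 in HD and 238.1 to 278.3 in ND. The part of these shifts in the Notch results was not tested. In bulk RNA of 1 cell line, fewer cells with a transcript and less of it per cell cannot be told apart.

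JAG1 encodes Jagged1, a membrane ligand that activates Notch receptors on adjacent cells. Its probe read 17260 and 17970 in HD cells, against 1370 and 1564 in ND cells, so the groups were far apart and each pair of arrays lay close together. The means were 17620 ± 505 in HD and 1467 ± 137 in ND (SD, n = 2 arrays each), a log2 fold change of 3.59 with a standard error of 0.0895, a 95% confidence interval of 3.27 to 3.91 and a limma adjusted p of 0.0241. Of all 28264 probes it ranked 7 from the top by fold change. JAG1 lies on chromosome 20 at 10637684 to 10673999 (GRCh38.p14). The window from 250 bases before to 50 bases after its start site, from RefSeq on GRCh38.p14, is shown because JAG1 had the largest change of any member:

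JAG1, chr20:10673950-10674249 (minus strand): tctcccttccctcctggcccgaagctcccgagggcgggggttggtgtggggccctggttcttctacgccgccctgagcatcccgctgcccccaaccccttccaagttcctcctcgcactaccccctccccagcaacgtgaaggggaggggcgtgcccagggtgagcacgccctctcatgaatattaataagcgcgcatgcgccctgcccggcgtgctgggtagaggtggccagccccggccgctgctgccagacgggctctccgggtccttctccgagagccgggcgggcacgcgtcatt

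The other ligands did not pass the test, and their changes lay on both sides of 0. JAG2, the second Jagged ligand, read 2595 and 2096 in HD, against 1633 and 1579 in ND (log2 fold change 0.54, limma adjusted p 0.122). DLL3, a Delta-like ligand that in mice acts inside the cell on Notch rather than as an activator, read 9479 and 9038 in HD, against 14010 and 16200 in ND, on its brighter probe (-0.70, limma adjusted p 0.056). The second DLL3 probe read 520.1 and 431.2 in HD, against 965.7 and 721.2 in ND (-0.82, limma adjusted p 0.132). Both DLL3 probes lay lower on both HD arrays, as did 34.8% of all probes, and both missed the threshold. The change of the brighter DLL3 probe shrank to -0.41 after quantile and -0.30 after cyclic loess normalization (limma adjusted p 0.0311 and 0.0744). DLL1, the founding Delta-like activating ligand, read 84.99 and 138.6 in HD, against 162.2 and 129.2 in ND, and the groups overlapped. DLL4, an activating ligand best known from endothelial sprouting, read 689.3 and 2224 in HD, against 1308 and 495.4 in ND. Its larger array exceeded the smaller 3.23-fold within HD and 2.64-fold within ND, so its log2 fold change of 0.62 carried a confidence interval of -2.82 to 4.06. The 5 endothelial marker genes summed to 1033 to 1038 in HD and 1160 to 1360 in ND, and none was at 50 on all arrays. All arrays hold 1 cancer cell line, so these sums describe RNA of that line. The log2 fold change was 0.265 for TEK and below 0 for the other 4, and none passed the test. Whether these values are linked to those of DLL4 and NOTCH4 was not tested.

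NOTCH1 encodes the first Notch receptor. Its probe read 928.9 and 942.8 in HD cells, against 397 and 446.5 in ND cells, with no overlap. The means were 935.9 ± 9.82 in HD and 421.8 ± 35 in ND (SD, n = 2 each), a log2 fold change of 1.15 with a standard error of 0.0769 and a limma adjusted p of 0.036. NOTCH3 read 5433 and 4401 in HD, against 8419 and 8456 in ND, a log2 fold change of -0.79 that missed the threshold (limma adjusted p 0.0707). NOTCH3 was thus separated between the groups in the opposite direction to NOTCH1, and the difference between the 2 changes was not tested. The NOTCH3 change shrank to -0.61 after quantile and -0.52 after cyclic loess normalization (limma adjusted p 0.0576 and 0.0388). NOTCH2 read 361.2 and 298.6 in HD, against 267.8 and 308.5 in ND, on its brighter probe, and the groups overlapped. Its dimmer probe read 83.29 and 125.3 in HD, against 417.8 and 127.9 in ND, where the log2 fold change of -1.18 rested on ND array 1 and was -0.32 without it. NOTCH2 has near-identical NOTCH2NL copies, and how far its probes separate them is unknown, so its values are uncertain. NOTCH4, a receptor known mainly from endothelium, read 50 and 84.77 in HD, against 81.11 and 91.56 in ND, close to the lowest value throughout.

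**Figure D2:**
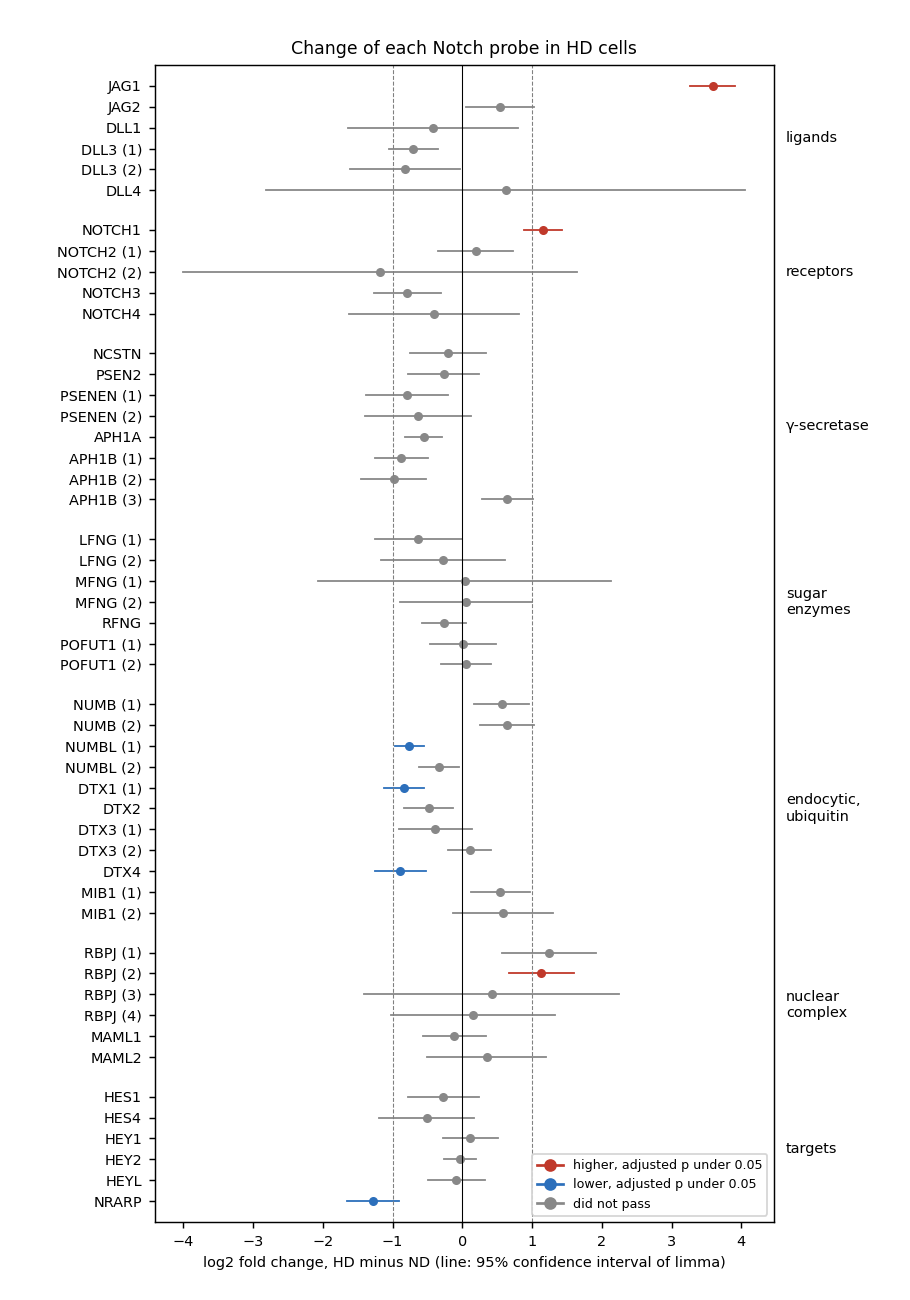
Log2 fold change (HD minus ND) of each Notch probe that exceeded 50 on 1 or more arrays, with the 95% confidence interval of limma and dashed lines at a change of 1 in either direction. Red points (JAG1, NOTCH1, RBPJ probe 2) passed an adjusted p under 0.05 as higher in HD and blue points (NUMBL probe 1, DTX1 probe 1, DTX4, NRARP) as lower, while DLL4 and the dimmer NOTCH2 probe have the widest intervals.

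γ-Secretase is the membrane protease that makes the final cut in the receptor, built from a presenilin (PSEN2 here), nicastrin (NCSTN), PSENEN and an APH1 protein. None of its 8 probes passed an adjusted p under 0.05 in limma, and 6.65% of all probes were called higher and 7.19% lower. At an unadjusted p under 0.05, 1 was higher (12.5%, against 16.2% of all probes) and 4 were lower (50%, against 19.4%). Cyclic loess normalization called 1 higher (12.5%, against 17.6% of all probes) and 3 lower (37.5%, against 13.9%). Quantile normalization called 0 higher (11.7% of all probes) and 1 lower (12.5%, against 9.73%). Scaling to a common 75th percentile called 1 higher (12.5%, against 15.1%) and 4 lower (50%, against 18.5%). An intensity trend in eBayes called 0 higher (7.66% of all probes) and 3 lower (37.5%, against 8.36%). Robust eBayes called 0 in either direction (0.959% and 1.04% of all probes). The share called lower thus depended on the scaling and on the test. All 5 genes had a brightest-probe log2 fold change below 0, with a median of -0.555, but the sign of NCSTN (-0.20) turned to 0.19 after quantile and 0.28 after cyclic loess normalization. APH1A, a scaffold subunit, read 17000 and 15220 in HD, against 23160 and 24140 in ND (limma adjusted p 0.0552), a difference of -0.555 that shrank to -0.05 after cyclic loess normalization. The 3 probes of APH1B, the alternative scaffold subunit, disagreed. The first read 2243 and 1909 in HD, against 3716 and 3872 in ND (log2 fold change -0.87, limma adjusted p 0.0501), and the second gave -0.98 (limma adjusted p 0.0538). The third read 1159 and 1261 in HD, against 720.5 and 827.8 in ND (0.65, limma adjusted p 0.0654), in the opposite direction, so no direction can be given for APH1B as a gene. PSENEN, whose product activates presenilin cleavage, had 2 probes at -0.795 and -0.64, and PSEN2 was at -0.27, none past the threshold.

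Receptors are decorated in the secretory pathway by the O-fucosyltransferase POFUT1 and extended by the fringe glycosyltransferases LFNG, MFNG and RFNG, which shift the preference of a receptor between Delta-like and Jagged ligands. None of their 7 probes passed in limma, and 1 had an unadjusted p under 0.05 (14.3%, against 35.7% of all probes). Log2 fold changes ran from -0.63 for the brighter LFNG probe to 0.05. Both HD arrays lay below both ND arrays in 2 of the 7 probes (34.8% of all probes). They lay above in 0 (24.9% of all probes), and the groups overlapped in 5. The brighter MFNG probe read 739.4 and 1628 in HD, against 1372 and 839.1 in ND, so the arrays of each group differed more than the groups did.

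The endocytic and ubiquitin regulators gave 3 calls among 12 probes, all lower in HD (25%, against 7.19% of all probes), and 0 higher (6.65% of all probes). At an unadjusted p under 0.05 in limma, 3 were higher (25%, against 16.2% of all probes) and 5 lower (41.7%, against 19.4%). Quantile normalization called 3 higher (25%, against 11.7% of all probes) and 4 lower (33.3%, against 9.73%). The calls in 1 direction thus depend on the scaling. NUMBL, a relative of the endocytic adaptor NUMB that restrains Notch in receiving cells, read 2438 and 2231 in HD, against 3973 and 3942 in ND, on its brighter probe (means 2335 ± 147 in HD and 3958 ± 22.2 in ND, SD, n = 2 each). It fell by 0.76 on the log2 scale (standard error 0.0588, limma adjusted p 0.0384), while its dimmer probe lay at -0.33 and did not pass. DTX1, a Deltex E3 ligase that binds the receptor's intracellular domain, read 550.7 and 519.7 in HD, against 902.6 and 1010 in ND, and fell (log2 fold change -0.84, limma adjusted p 0.043). DTX4, another Deltex ligase, read 487 and 418.7 in HD, against 813 and 857.9 in ND, and fell (-0.89, limma adjusted p 0.048). In the called probe of each of these 3 genes both HD arrays lay below both ND arrays, as in 34.8% of all probes. The second DTX1 probe was at 50 on all arrays. NUMB itself read 9396 and 7930 in HD, against 5732 and 5929 in ND (0.57, limma adjusted p 0.0839), and its second probe gave 0.64 (limma adjusted p 0.0706). MIB1, the ligase that drives ligand endocytosis in the sending cell, had log2 fold changes of 0.54 and 0.59 on its 2 probes, also short of the threshold. DTX2 was at -0.48, and the brighter DTX3 probe at -0.39, a value that turned to 0.20 after quantile and 0.21 after cyclic loess normalization.

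RBPJ encodes the DNA-binding protein through which all Notch receptors act, bound to corepressors without the signal and to the intracellular domain with it. Its brightest probe read 22150 and 18310 in HD, against 7553 and 9497 in ND (log2 fold change 1.25, standard error 0.191, limma adjusted p 0.0612), which met the fold criteria only. The second probe read 5999 and 6441 in HD, against 2568 and 3122 in ND (means 6220 ± 312 in HD and 2845 ± 391 in ND, SD, n = 2 each), and rose (log2 fold change 1.135, standard error 0.134, limma adjusted p 0.0484). Both bright probes lay higher on both HD arrays, as did 24.9% of all probes. The brightest one passed at an adjusted p of 0.0202 after quantile and 0.00394 after cyclic loess normalization (limma). The 2 dimmest RBPJ probes, at 79.01 to 185.8 on all arrays, overlapped between the groups. Of the Mastermind coactivators, MAML1 was at -0.11 and MAML2 at 0.35, neither past the threshold, and MAML3 was at 50 throughout.

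NRARP encodes a small ankyrin-repeat protein that binds the intracellular domain with RBPJ, limits Notch activity and is itself a Notch target. It read 485.3 and 547 in HD cells, against 1188 and 1329 in ND cells, with no overlap. The means were 516.1 ± 43.6 in HD and 1259 ± 99.8 in ND (SD, n = 2 each), a log2 fold change of -1.29 with a standard error of 0.106, a 95% confidence interval of -1.66 to -0.91 and a limma adjusted p of 0.0396. It was the 1 Notch probe that fell by both criteria, and it fell while NOTCH1, JAG1 and RBPJ rose. Its start-site window, on chromosome 9, is shown because NRARP was the only called target gene:

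NRARP, chr9:137302222-137302521 (minus strand): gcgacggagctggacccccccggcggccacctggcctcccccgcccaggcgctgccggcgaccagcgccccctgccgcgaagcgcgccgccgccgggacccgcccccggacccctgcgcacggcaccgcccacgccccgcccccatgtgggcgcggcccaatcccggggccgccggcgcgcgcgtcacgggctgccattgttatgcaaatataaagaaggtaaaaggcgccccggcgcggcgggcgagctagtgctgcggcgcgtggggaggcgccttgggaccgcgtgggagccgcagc

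The HES and HEY genes encode repressors of the basic helix-loop-helix class and are the usual readout of the pathway. HES1 read 1266 and 1149 in HD, against 1314 and 1612 in ND (log2 fold change -0.27, limma adjusted p 0.332). HES4 read 2783 and 3449 in HD, against 3976 and 4900 in ND (-0.51, limma adjusted p 0.211). Both HD arrays lay below both ND arrays in these genes, as in 34.8% of all probes, and neither gene passed the test. HEY2 read 791.3 and 715.8 in HD, against 775.2 and 768.8 in ND, and the groups overlapped. HEYL read 277.9 and 246.2 in HD, against 260.3 and 297.2 in ND, and overlapped as well. HEY1 read 50630 and 47930 in HD, against 41860 and 49280 in ND, a log2 fold change of 0.12 (limma adjusted p 0.56), but after quantile normalization it was 0.84 and passed (limma adjusted p 0.0154), and after cyclic loess normalization 0.82 (limma adjusted p 0.00717). Over all probes of the deposited values no difference in these genes passed, which does not show that they were equal. When only the probes above 50 on all 4 arrays were tested, HES4 passed as lower in HD (limma adjusted p 0.0498).

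RBPJ binds the letters GTGGGAA. A search of both strands for these letters in the RefSeq windows of 28 members, 35 windows in all, found them in 5 windows of 5 genes (14.3%, against 6.25% of all 35116 windows), namely HES1, HES4, HEYL, HEY2 and 1 of the 5 windows of RBPJ. Of the genes with a match, RBPJ was called higher in HD, and HES1, HES4, HEYL and HEY2 had no call over all probes. Of the other called genes, JAG1, NOTCH1, NUMBL, DTX4 and NRARP had no match in their windows, and DTX1 was not among the 28 members with a window. HEY1 was not among the members with a window either, so it was not searched. A match is a description of the letters and not a binding site. The stretches around each match are given on the gene's own strand (GRCh38.p14), with the motif in capitals as GTGGGAA or as its reverse complement TTCCCAC:

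HES1, chr3:194136036-194136096 (plus strand): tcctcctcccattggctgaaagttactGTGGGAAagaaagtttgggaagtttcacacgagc
HES4, chr1:1000141-1000201 (minus strand): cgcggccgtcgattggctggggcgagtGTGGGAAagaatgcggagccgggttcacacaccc
HEYL, chr1:39639788-39639848 (minus strand): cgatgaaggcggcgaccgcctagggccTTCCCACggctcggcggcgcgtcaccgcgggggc
HEY2, chr6:125749392-125749452 (plus strand): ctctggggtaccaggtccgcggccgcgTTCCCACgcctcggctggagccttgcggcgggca
HEY2, chr6:125749601-125749661 (plus strand): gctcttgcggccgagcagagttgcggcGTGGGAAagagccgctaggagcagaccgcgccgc
RBPJ, chr4:26319604-26319664 (plus strand): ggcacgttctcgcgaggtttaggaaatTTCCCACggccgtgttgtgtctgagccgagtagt
RBPJ, chr4:26319646-26319706 (plus strand): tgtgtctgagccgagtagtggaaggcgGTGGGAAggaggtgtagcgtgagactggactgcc

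Relative to the start site, the motif began at -85 in HES1, -77 in HES4, -178 in HEYL, -213 and -4 in HEY2, and -115 and -73 in RBPJ.

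The log2 fold change of all probes depended on brightness. In probes with a mean log2 intensity of 9 to 10 the median was -0.03, at 12 to 13 it was -0.25, at 14 to 15 it was -0.59 and at 15 to 16 it was -0.78. The bright NCSTN, DTX3, APH1A and HEY1 probes lie between 14 and 16, and their changes on the deposited values (-0.20, -0.39, -0.555 and 0.12) were above the median of their brightness. NRARP, DTX4 and DTX1, at -1.29, -0.89 and -0.84, lie in the range with a median of -0.03. JAG1 and the 2 bright RBPJ probes were well above 0 in ranges whose medians were below it. The part of brightness in the members' changes was not tested.

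**Figure D3:**
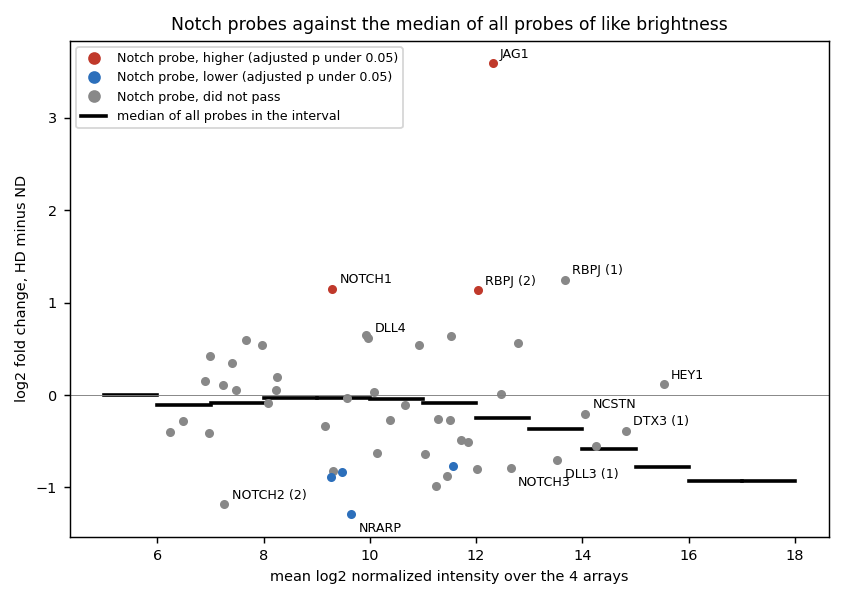
Log2 fold change (HD minus ND) against mean log2 normalized intensity for the Notch probes, with black bars for the median of all probes in each interval of 1 log2 unit. The black bars run down to -0.93 at the bright end, while JAG1 lies at 3.59 and NRARP at -1.29.

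**Figure D4:**
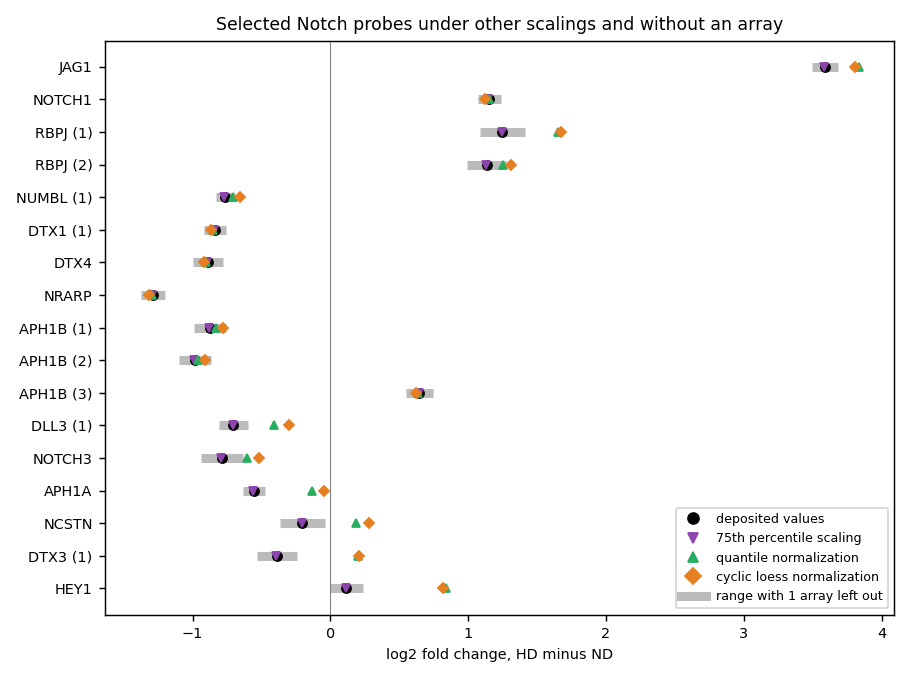
Log2 fold change (HD minus ND) of selected Notch probes on the deposited values, under 3 other scalings and, as a grey bar, over the fits with 1 array left out. NCSTN and DTX3 probe 1 cross 0 under quantile and cyclic loess normalization and HEY1 moves to above 0.80, whereas JAG1, NOTCH1, NRARP and NUMBL keep their side of 0.

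Arrays of a group differed more than 2-fold in few Notch probes, 2 of 51 within HD (1.64% of all probes) and 2 of 51 within ND (3.72% of all probes). DLL4 was the one member that did so in both groups.

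**Figure D5:**
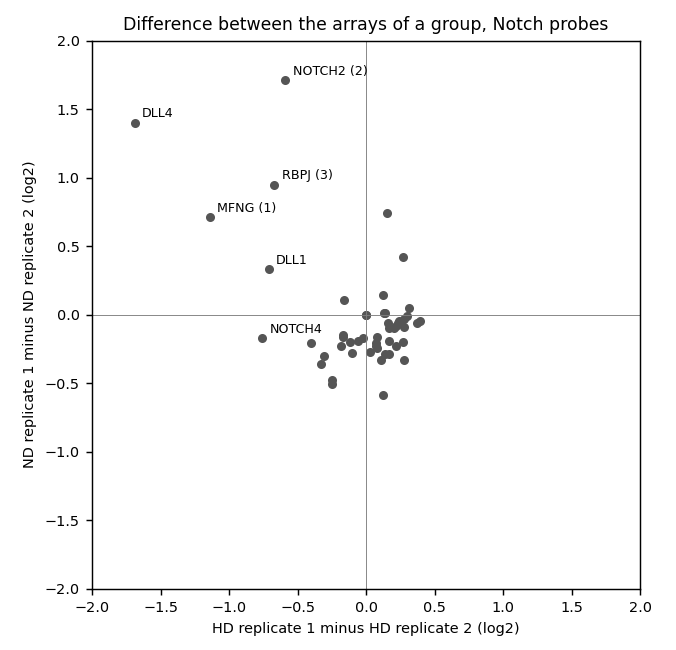
Log2 difference between the 2 HD arrays (horizontal) and between the 2 ND arrays (vertical) for each Notch probe. Most points lie within 0.5 of 0 on both axes, and DLL4, the brighter MFNG probe, the dimmer NOTCH2 probe and RBPJ probe 3 lie at upper left, higher on HD array 2 and on ND array 1.

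Of 44 further genes of the pathway, 40 had a named probe (54 probes) and 9 probes of 6 genes were higher in HD (16.7%, against 6.65% of all probes), while 0 were lower (7.19% of all probes). At an unadjusted p under 0.05 in limma, 23 probes were higher (42.6%, against 16.2% of all probes) and 7 lower (13%, against 19.4%). The 75th percentile scaling called 21 higher (38.9%, against 15.1% of all probes) and 4 lower (7.41%, against 18.5%). The median log2 fold change of the genes was 0.10. ADAM10, the protease that cuts the receptor before γ-secretase, read 2168 and 2057 in HD, against 1036 and 1072 in ND (1.002, limma adjusted p 0.0302). FBXW7, the substrate receptor of an E3 ligase that marks the intracellular domain for degradation, rose on all 3 of its probes by 1.44, 2.10 and 1.57. Its middle probe read 722.4 and 727.6 in HD, against 162.2 and 176.8 in ND. SPEN, an RBPJ corepressor, read 9899 and 8423 in HD, against 2920 and 3400 in ND (1.54, limma adjusted p 0.0419). The corepressor CTBP2 rose by 1.21 and 0.59 on 2 probes and lay at 50 on the third. The Deltex-family ligase gene DTX3L rose by 1.04. The histone demethylase KDM5A rose by 0.80 on its called probe, while its other probe, at 0.91, missed the threshold (limma adjusted p 0.0898). EOGT, an O-GlcNAc transferase acting on receptor repeats, and SNW1, a transcription coregulator, met the fold criteria alone, at 1.73 and 1.01.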

How the data were processed

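Total RNA of TOV112D cells (HD 1, HD 2, ND 1, ND 2) was hybridized to single-colour Phalanx Human OneArray slides. The authors normalized the arrays, and the deposited values are linear normalized intensity, none below 50. The methods name centring at the 75th percentile, but the arrays of the table share their median instead, with the background correction not given in the sources used here. The log2 intensity was compared between HD and ND over all 28264 probes with limma 3.58.1 (lmFit, eBayes; R 4.3.3), without a block, and p-values were adjusted by Benjamini-Hochberg. The residual degrees of freedom were 2 and the prior degrees of freedom 0.543, and 35.7% of probes had an unadjusted p under 0.05. Probe names came from the platform annotation (25893 probes with 1 symbol, 2371 with none), and a gene is represented by its brightest probe. Probe sequences were not used here, so cross-hybridization to related genes was not examined.

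Values on every array are given for each member past an adjusted p under 0.05 or the fold criteria, and for each ligand, receptor and target gene; others are given by ranges and counts, and further pathway genes are named where a probe passed. Members, lists and tests were chosen with earlier results of these data known. Alternatives were quantile, cyclic loess and 75th percentile scaling, a pseudocount of 50, 2 filters on dim probes, trended and robust eBayes, a replicate block and leaving out each array. The procedure was tested on simulated data. RefSeq windows (GRCh38.p14) were matched by symbol.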

Additional observations from a re-analysis of the deposited data

How the results depend on the processing

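Against 3 Notch probes higher and 4 lower at an adjusted p under 0.05, quantile normalization called 8 and 8, cyclic loess normalization 11 and 9, 75th percentile scaling 9 and 13, a filter on probes exceeding 50 on 1 or more arrays 7 and 12, and on all 4 arrays 10 and 15 (of all probes left, 15.4% and 19.2%, then 19.4% and 27.6%). An intensity trend in eBayes called 3 higher (5.88%, against 7.66% of all probes) and 8 lower (15.7%, against 8.36%). Robust eBayes called 1 higher (JAG1; 1.96%, against 0.959% of all probes) and 0 lower (1.04% of all probes). Same-numbered arrays differed in opposite ways (r = -0.323 over 28264 probes), so the numbers do not pair them; the replicate block called 0 and 0 (with 1 residual degree of freedom), and so did the crossed pairing, chosen after seeing the data. Leaving out 1 array called 0 to 0 in both directions, where a lone array is assumed to vary like the other group. By the fold criteria, 4 probes were higher and 1 lower, with 2 lower among probes exceeding 50 on all 4 arrays. Leaving out an array gave 2 to 4 higher and 1 to 2 lower, with 2 higher without ND 1 and 2 lower without HD 2 or ND 1. The median of -0.26 became -0.128 (quantile) and -0.072 (cyclic loess), -0.113 over all Notch probes, and -0.311 to -0.152 with an array left out. Under quantile and cyclic loess normalization NCSTN turned to 0.187 and 0.277, and DTX3 probe 1 to 0.201 and 0.205. With an array left out the sign also turned in DLL4 (-0.224 to 1.466), MFNG probe 1 (-0.537 to 0.602), MFNG probe 2 (-0.243 to 0.347), POFUT1 probe 1 (-0.13 to 0.154), POFUT1 probe 2 (-0.03 to 0.138), RBPJ probe 3 (-0.055 to 0.896), RBPJ probe 4 (-0.216 to 0.519), MAML1 (-0.254 to 0.028), HEY1 (0 to 0.235), HEY2 (-0.109 to 0.036) and HEYL (-0.184 to 0.007). The 7 called probes kept their direction in all 14 settings, but only the other scalings could have turned it. Their groups did not overlap, which fixed the direction with an array left out and under the pseudocount. The filters, the other eBayes fits and the blocks left the log2 fold change as it was. The cause of these shifts was not tested. With 2 arrays a group, the number of arrays limits the precision, and values at 50 carry no order.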

Other observations

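The array pattern of DLL4 was shared by other probes. In 101 probes of the table HD 2 exceeded HD 1 and ND 1 exceeded ND 2, each more than 2-fold, against 1 probe with both differences turned round, 2 probes with array 1 higher in both groups and 1 probe with array 2 higher in both. Among the further pathway genes, the second probe of AAK1, a kinase of clathrin-mediated endocytosis, read 557.5 and 1911 in HD, against 1551 and 825.3 in ND. FURIN, the protease that makes the first cut in the receptor during its transport, read 1373 and 2502 in HD, against 2643 and 1639 in ND. The cause of the shared pattern was not tested.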
